A study of Anser sp. with 4 samples.

Results

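Ventral skin of female Wanxi-White geese 1.5 days after molt was compared with ventral skin of the same kind of bird before molt, as the earliest step of feather regrowth that the study sampled. The comparison rests on 2 of the 4 one-colour (Cy3) arrays of the series, 1 array for each time. By the labels, 6 randomly chosen geese were kept in their own pen and skin was taken from them at each time. The labels do not say whether the RNA of several birds was pooled for an array, nor the age of the birds at sampling. The arrays carry probes designed on the chicken build galGal3, so goose RNA was read by probes for another bird. Of 31550 transcript identifiers on the design, 19945 entered the comparison, because 1 or more of their probes rose well above background on either array.

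Feathers grow from follicles in the skin and are replaced at molt. When an old feather is shed, the dermal papilla at the base of the follicle stays behind, and the epithelium around it divides to build the next feather. The cells of the new feather later fill with corneous beta proteins, often called feather keratins, and die. The files name transcripts by accession and pair none of them with a gene, so keratins, signalling genes and markers of other cell types in skin could not be told apart here, and the labelled tissue could not be checked against marker genes. The results therefore describe groups of transcripts by their signal, their probes and their behaviour on the other arrays.

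Levels are given as log2 processed signal less the 75th percentile of the array, which was 134 signal units at 1.5 days and 125 before molt. A level of 0 is thus the 75th percentile, and a difference of 1 is 2-fold. At least 1 probe was well above background for 18486 identifiers at 1.5 days and for 18883 before molt. For 1062 identifiers this held at 1.5 days alone and for 1459 before molt alone. No non-control spot was saturated (0 on the 4 arrays), and control spots, which include the spike-in RNAs, were not checked for this. Each time had a single array, so no test could be made without replicates, and a difference between the arrays holds the difference between birds and between RNA preparations. In whole skin, fewer cells of a kind and less RNA per cell cannot be told apart.

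About as many transcripts lay on either side of no change, but the large differences were mostly downward. The median log2 ratio of 1.5 days over before molt was 0.01, with quartiles of -0.55 and 0.47, and 49.6% of the identifiers lay within 0.5 of 0. At 1.5 days 1651 identifiers (8.28%) stood 2-fold or more above their level before molt and 2700 (13.5%) 2-fold or more below it, 21.8% in all. At 4-fold there were 159 higher (0.797%) and 737 lower (3.7%), and at 16-fold 4 higher and 52 lower. Centring each array on its median in place of the 75th percentile moved the median ratio to 0.14 and gave 2220 higher and 2273 lower identifiers, with 221 and 635 past 4-fold, so the excess of lower transcripts at 2-fold depended on the scaling and that at 4-fold was seen under both. Scaling on the spike-in RNAs moved the median to -0.91 and left 200 higher and 9131 lower. Over probes well above background on both arrays alone (17399 identifiers), 8.16% were higher and 11.9% lower (20.1% in all), and past 4-fold the shares were 0.787% higher and 3.2% lower. The limit of 2-fold fell in a dense part of the distribution, with 315 identifiers just above it (1.0 to 1.1) and 419 just under it (0.9 to 1.0) on the higher side. On the lower side 330 lay between -1.1 and -1.0 and 374 between -1.0 and -0.9.

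**Figure D1:**
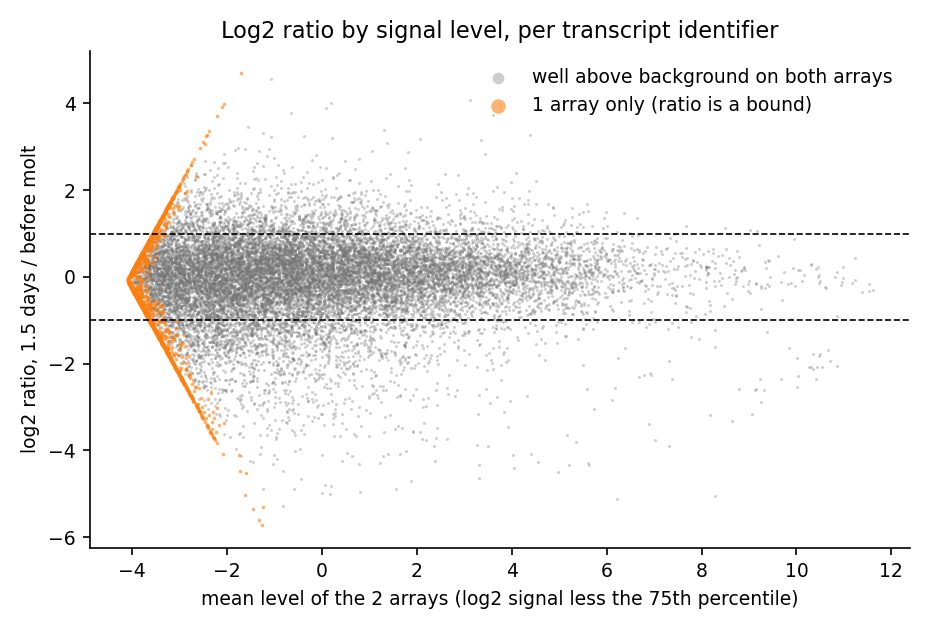
Each point is 1 of the 19945 identifiers, with its mean level over the 2 arrays on the x axis and its log2 ratio of 1.5 days over before molt on the y axis. Dashed lines mark 2-fold, and orange points were well above background on 1 array alone. Their ratio is a bound where the dimmer value was raised to the floor, and otherwise rests on a dim reading. The lower tail reaches further than the upper one at nearly all levels, and a small cluster near -2 stands apart at levels above 9.

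The levels behind the calls are bounded by the floor, since a value at 1.5 days cannot lie below it and a large fall therefore needs a bright signal before molt. The 2700 lower identifiers had a median level of -2.55 at 1.5 days and of -0.74 before molt. The 52 that were at least 16-fold lower had medians of -2.13 at 1.5 days and 2.55 before molt. The 1651 higher identifiers had a median level of -0.48 at 1.5 days and of -1.91 before molt. For 625 of the lower and 254 of the higher identifiers the dimmer array did not reach well above background. Values there that lay under the floor were raised to it, which makes the ratio a bound. Values above the floor kept their own uncertain reading. By level, lower identifiers made up 20.1% of those between -3 and -2, 11.9% of those between 0 and 1 and 5.82% of those between 3 and 5, while higher ones made up 10.2%, 9.48% and 7.42%. Between levels of 3 and 5 higher identifiers outnumbered lower ones, and above 5 there were 30 higher and 73 lower. The lowest value well above background was -4.14 at 1.5 days and -4.06 before molt.

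The brightest identifiers split into a large group within 2-fold and a smaller group that was lower at 1.5 days. Among the 100 identifiers with the highest mean level over the 2 arrays, all at 8.63 or above, 26 were at least 2-fold lower at 1.5 days and 2 were higher. Of the 26, 18 were at least 4-fold lower. Among the other 19845 identifiers 13.5% were at least 2-fold lower and 3.62% at least 4-fold lower. The 26 had a median level of 9.05 at 1.5 days and 11.2 before molt, and log2 ratios from -3.32 to -1.27. Each of the 26 rested on a single probe (0 had more), and such probes may also bind near-identical copies, so the number of separate genes among them is uncertain. Of the spike-in RNAs, 6 dimmer probes shifted between the arrays by 0.80 to 1.01. A probe at 10.0 at 1.5 days and 9.48 before molt shifted by 0.54, and one at 11.3 on both arrays by -0.01. Whether ratios at such levels are compressed was not tested.

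Those 26 were then read on the 2 arrays that had no part in choosing them, 10 days over 5 days after molt. Of the 26, 25 were 4-fold or more higher at 10 days than at 5 days, with a median log2 ratio of 5.64 and a range of 0.50 to 6.57. Of the 72 identifiers among the brightest 100 that lay within 2-fold at 1.5 days, 0 were higher by 2-fold or more at 10 days than at 5 days, and their median was -0.21. Over all 18821 identifiers compared between 10 and 5 days, 8.96% were higher by 2-fold or more and 6.7% lower (15.7% in all), and at 4-fold 2.51% were higher and 0.765% lower. The probes of 11 of the 26 lay in the lower rows of the printed array and those of 15 in the upper rows.

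Agreement between different probes of the same transcript was the check that the arrays allow. Only 4477 of the 19945 identifiers had 2 or more probes in use, and 15468 (77.6%) rested on 1 probe. The share of lower calls fell steeply with the number of probes, while the share of higher calls did not. Of identifiers with 1 probe, 8.72% were higher by 2-fold or more and 15.6% lower. With 2 probes the shares were 6.65% higher and 7.64% lower, with 3 probes 6.88% and 4.15%, and with 4 or more probes 7.08% and 1.99%. Identifiers with more probes were also brighter, with a median level of 0.80 at 4 or more probes and -1.34 at 1 probe. Calls were made on the mean of the probes in use, and a mean of more probes spreads less. The shares are therefore not like for like. The part of level and of averaging in them was not tested.

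Where an identifier had 2 or more probes in use and was past 2-fold on their mean, the probes usually shared its direction but often not its size. Of 302 such higher identifiers, 285 had every probe above 0 and 117 (38.7%) had every probe at least 2-fold higher. Of 282 lower ones, 237 had every probe below 0 and 93 (33.0%) had every probe at least 2-fold lower. Past 4-fold, 15 of 19 higher and 31 of 34 lower identifiers had every probe at least 2-fold in that direction. For 3875 identifiers with 2 or more probes well above background on both arrays, log2 ratios of probes of the same identifier had an SD of 0.65, and the SD of the identifiers' means was 0.67. Repeated spots of the same probe spread far less, with an SD of 0.19 over 23 probes spotted 5 times each. The SD between probes was 0.47 where every probe lay above the 75th percentile (1220 identifiers) and 0.81 where every probe lay at or under it (899 identifiers).

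The mean of an identifier's probes contains the probe that made it stand out, so the calls were also made on one set of probes and read on another. The probes of each of the 3875 identifiers were taken alternately into an odd and an even set. Of identifiers past 2-fold upward on the odd set there were 353, and on the even set their median was 0.77, 83.6% of them lay above 0 and 37.4% were past 2-fold again. Over all 3875 identifiers 10.6% were past 2-fold upward on the even set and 7.69% downward, and 60.9% lay above 0. For the 283 past 2-fold downward on the odd set, the even set gave a median of -0.32, with 62.9% below 0 and 27.9% past 2-fold again. Over all identifiers 39.1% lay below 0 on the even set. With the sets exchanged, the 409 higher identifiers had a median of 0.65 and 32.3% were again past 2-fold, and the 298 lower ones had a median of -0.49 and 26.5% were again past 2-fold.

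**Figure D2:**
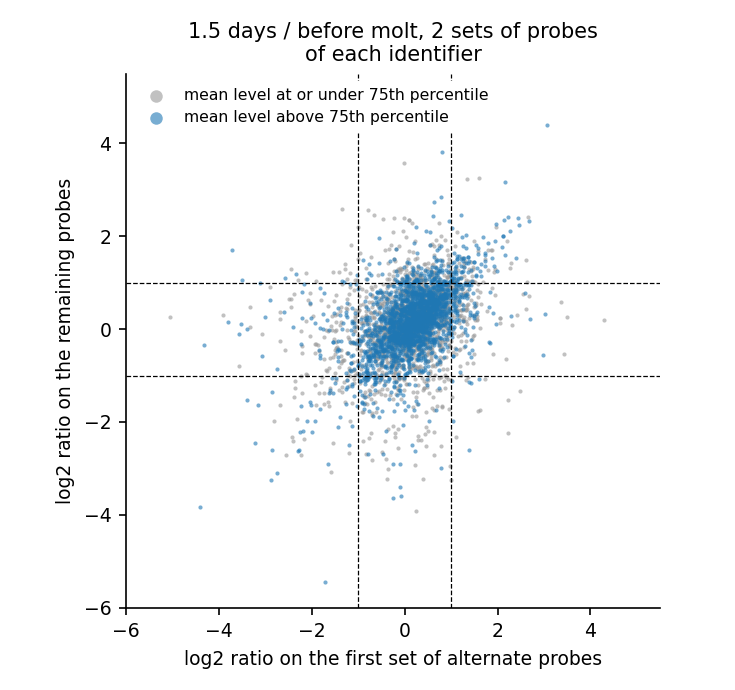
Each point is 1 of 3875 identifiers, with the log2 ratio of 1.5 days over before molt on its odd set of probes (x axis, the first set) against its even set (y axis, the remaining probes). Dashed lines mark 2-fold. Points spread along both axes as well as the diagonal, where one set of probes shows a change and the other does not, and the brighter identifiers (blue) lie closer to the diagonal than the dimmer ones (grey).

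Agreement was closer at high signal than at low signal. Where every probe lay above the 75th percentile, 55.7% of 97 identifiers chosen as higher on the odd set and 48.0% of 50 chosen as lower were again past 2-fold on the even set. Their medians there were 1.04 and -0.93. Over all 1220 such bright identifiers 10% were past 2-fold upward on the even set and 5% downward. Where every probe lay at or under the 75th percentile, 25.7% of 101 higher and 25.3% of 99 lower identifiers were again past 2-fold, with medians of 0.56 and -0.16. Over all 899 such dim identifiers 11.8% were past 2-fold upward on the even set and 10.5% downward. Pooled over both exchanges of the sets, folds of 1.0 to 1.5 on the log2 scale were read again at a median of 0.66 in 547 higher readings and -0.38 in 304 lower ones. Folds of 2 to 3 were read again at 0.79 in 70 higher readings and -0.41 in 116 lower ones, and lower folds above 3 at -0.10 in 32 readings, of which 20 lay below 0. Of those 32 readings, 9 were past 2-fold downward again. Folds of 1.5 to 2 were read again at 0.96 in 133 higher readings and -0.62 in 129 lower ones, and higher folds above 3 at 0.70 in 12 readings. In both directions the median on the other set thus did not keep growing with the size of the fold. The correlation of the sets across identifiers was 0.38 (Pearson, 3875 identifiers), 0.58 among the bright ones and 0.28 among the dim ones. These values are across identifiers on the same 2 arrays, which are not independent replicates.

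The transcripts on which every probe agreed form a small set. Of 3589 identifiers whose probes in use (2 or more) were all well above background on both arrays, 100 (2.79%) had every probe past 2-fold upward and 70 (1.95%) every probe past 2-fold downward. The balance at 2-fold was upward in this set, against the downward balance over all identifiers, most of which rested on 1 probe. It was already upward before every probe had to agree. Among the 3875 identifiers with 2 or more probes well above background on both arrays, 265 were higher and 210 lower on the mean of those probes. Over all 17399 identifiers with 1 or more such probes, 1419 (8.16%) were higher and 2078 (11.9%) lower. The 100 higher identifiers had a median log2 ratio of 1.42 and median levels of 1.36 at 1.5 days and -0.02 before molt. The 70 lower ones had a median of -1.71 and median levels of -0.92 at 1.5 days and 0.70 before molt. Every probe was at least 4-fold higher for 8 identifiers, all 8 of them named by a curated RefSeq mRNA (NM), and at least 4-fold lower for 11, of which 3 were NM and 6 were chicken Ensembl transcripts (ENSGALT). Of the 100 higher identifiers 55 were NM and 42 ENSGALT, and of the 70 lower ones 31 were NM and 28 ENSGALT. The share of each kind among the 3589 is not given here, so these counts are no result about the kinds.

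The 2 identifiers with the largest mean log2 ratio in each direction are given with both of their probes. They were taken by size among identifiers with 2 or more probes, all well above background on both arrays and on the same side of 0. Not every probe had to be past 4-fold. The ratios of these identifiers at 1.5 days are a description. NM_001001296 stood 13.3-fold higher at 1.5 days than before molt, a log2 ratio of 3.73 ± 0.95 (SD, 2 probes). Its first probe had a level of 4.49 at 1.5 days and 1.42 before molt, and its second probe 6.46 at 1.5 days and 2.06 before molt. At 5 days its mean level was 3.31 and at 10 days 0.74, so that of the 4 arrays the one at 1.5 days was the highest and the one at 10 days the lowest. Both probes gave this same order of the times.

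NM_205419 stood 6.33-fold higher at 1.5 days, a log2 ratio of 2.66 ± 0.72 (SD, 2 probes). Its probes had levels of 1.50 and 2.11 at 1.5 days, against -0.65 and -1.06 before molt. Its mean level was 1.54 at 5 days and 0.37 at 10 days, and on both probes every array after molt lay above the array taken before molt.

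ENSGALT00000041377 was 17.3-fold lower at 1.5 days, a log2 ratio of -4.12 ± 0.40 (SD, 2 probes). Its probes had levels of -1.46 and -0.11 at 1.5 days, against 2.94 and 3.73 before molt. Its mean level was -1.36 at 5 days and 1.51 at 10 days, still 3.53-fold below the level before molt. NM_204846 was 11.9-fold lower on average, with a log2 ratio of -3.58 ± 2.63 (SD, 2 probes). Its first probe was at -0.37 at 1.5 days and 1.35 before molt, and its second at 0.91 at 1.5 days and 6.35 before molt, so the probes share the direction and differ widely in size. Its mean level was 0.46 at 5 days and 5.19 at 10 days, above the level before molt on both probes. These fold sizes carry only the spread between probes, not that between birds.

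**Figure D3:**
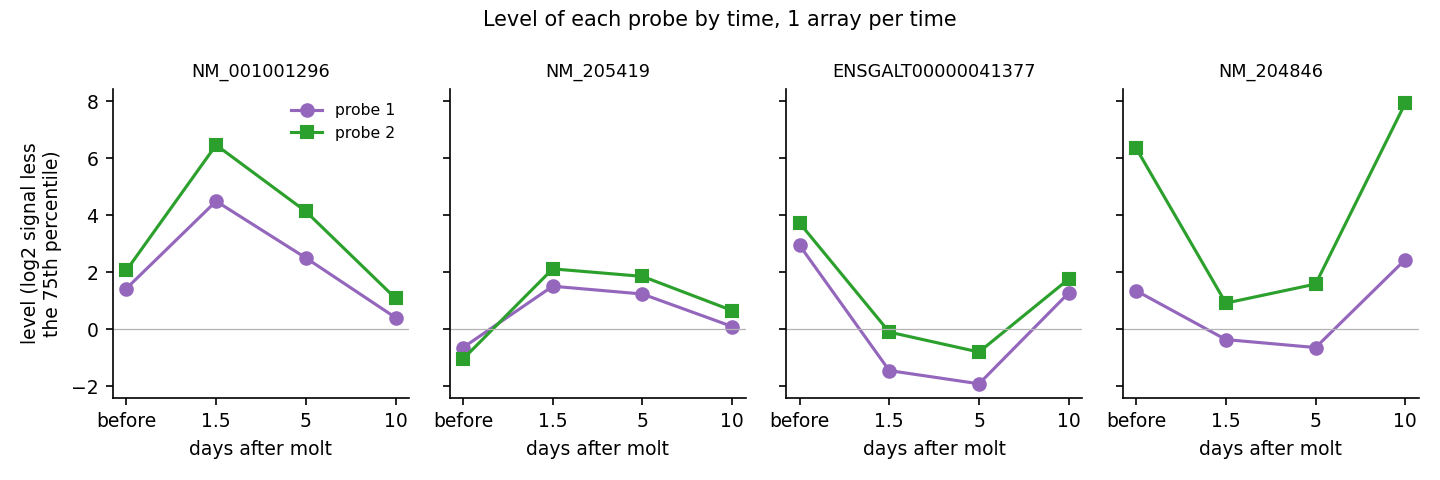
Level of each probe (log2 signal less the 75th percentile) of the 4 identifiers before molt and at 1.5, 5 and 10 days, with 1 array per time and 1 line per probe. The probes of each identifier move in the same direction between before molt and 1.5 days, and those of NM_204846 by 1.72 and 5.44 on the log2 scale.

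Where a probe was printed on the array went with its call, which touches every count above. The array is a grid of 532 rows. Probes of curated RefSeq mRNAs made up 22.9% to 24.4% of each of 12 bands of rows. Probes 2-fold or more lower at 1.5 days made up 7.89% of those compared in the topmost band and 24.0% in the lowest. Probes 2-fold or more higher made up 16.4% in the topmost band and 9.03% in the lowest. Over all 26587 probes compared, 12.7% were lower and 9.61% higher by 2-fold or more (22.4% in all), and 3.55% lower and 1.02% higher by 4-fold or more. In the lower rows (267 to 532) 1057 probes were higher and 2289 lower, and in the upper rows (1 to 266) 1499 were higher and 1100 lower.

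The dependence on position was narrower at higher signal. Among probes with a mean level above the 75th percentile, 8.68% were higher and 9.64% lower in the lower rows, and 8.88% higher and 7.15% lower in the upper rows. Among dimmer probes, 7.34% were higher and 22.1% lower in the lower rows, and 13.1% higher and 9.16% lower in the upper rows. Between levels of -3 and -2, 28.9% of probes were lower in the lower rows and 10.5% in the upper rows, and between 0 and 1 the shares were 14.8% and 9.10%. Between 1 and 2 they were 11.2% in the lower rows and 7.93% in the upper rows, and between 2 and 3 they were 6.90% and 6.06%. The share of spots well above background in the lowest band was 49.9% at 1.5 days and 57.1% before molt, and in the topmost band 55.7% at 1.5 days and 51.0% before molt. The local background was 38.25 signal units at 1.5 days and 38.5 before molt in the lowest band, and 43.0 and 44.0 in the topmost. In band 5 it was 46 units at 1.5 days and 44 before molt. The typical background-subtracted signal in the lowest band was 8.63 units at 1.5 days and 15.3 before molt. In the topmost band that signal was 14.9 units at 1.5 days and 9.39 before molt. The part of the background in the pattern by rows was not tested.

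Among identifiers with probes in both parts of the grid, the dim ones repeated this within a transcript. Over all 2309 such identifiers the median difference, lower rows less upper rows, was -0.01, and 51.0% had the lower ratio in the lower rows. Of these 2309, 199 were past 2-fold downward in the lower rows and 113 in the upper rows, and 213 and 255 were past 2-fold upward. For 481 such identifiers whose probes all lay at or under the 75th percentile, the median log2 ratio was 0.02 on the probes in lower rows and 0.22 on those in upper rows, and 63 were past 2-fold downward in the lower rows and 25 in the upper rows. For 725 identifiers whose probes all lay above the 75th percentile, the medians were 0.17 in the lower rows and 0.13 in the upper rows. The spike-in controls, foreign RNA added to each sample, have probes printed 32 times each over the grid. For 6 of these probes, the dimmest of them at -0.88 at 1.5 days and -1.87 before molt, the shift between the arrays was 0.05 to 0.13 larger in the lower rows than in the upper rows. The dimmer E1A_r60_3 (level -2.49 on both arrays) went the other way, at -0.13 in the lower rows and 0.13 in the upper rows. So did E1A_r60_a104 (-4.05 at 1.5 days and -4.08 before molt), at -0.03 and 0.10. Not all spots of these dimmer probes were above background, and the SD over their spots was 0.68 and 0.60. The part that position played in the calls was not tested.

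**Figure D4:**
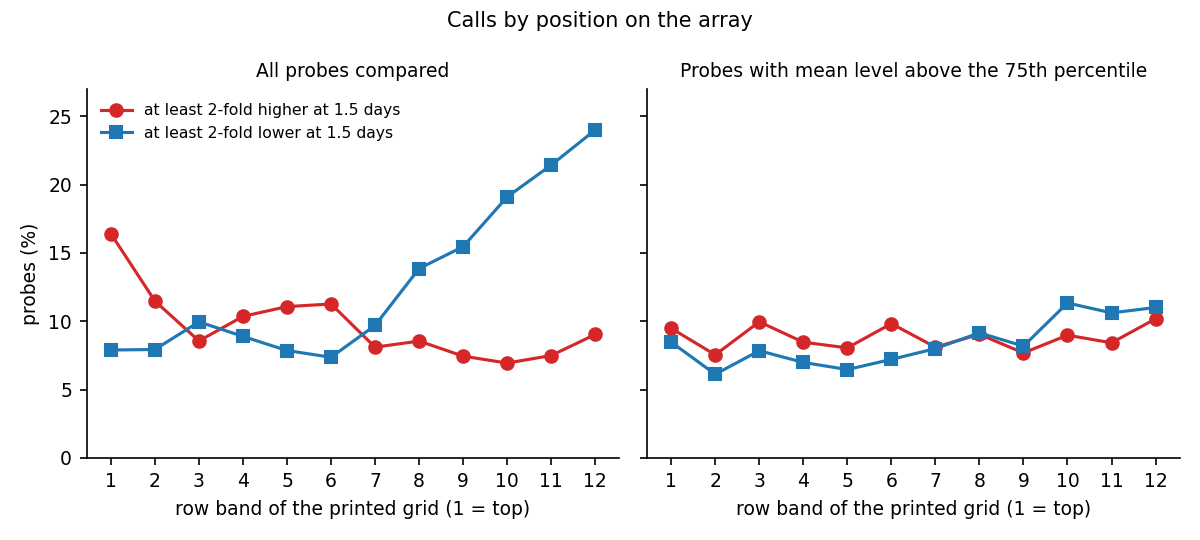
Share of probes (percent) past 2-fold upward (red) and downward (blue) at 1.5 days over before molt, by band of rows of the printed grid from the top (1) to the bottom (12). Over all probes compared (left) the share of lower calls is 7.89% in band 1 and 24.0% in band 12, and over probes brighter than the 75th percentile (right) all shares lie between 6.12% and 11.3%, with lower calls at 8.47% in band 1 and 11.3% in band 10.

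Taken from probes of the upper rows alone, the balance of directions turned. There 1229 of 11240 identifiers (10.9%) were past 2-fold upward at 1.5 days and 950 (8.45%) downward, so that higher ones made up 56.4%. Past 4-fold there were 126 higher (1.12%) and 249 lower (2.22%). The lower rows alone gave 787 of 11397 (6.91%) higher and 2019 (17.7%) lower, and higher ones made up 28.0%. Past 4-fold there were 80 higher (0.702%) and 571 lower (5.01%). Over identifiers with a mean level at or above the 75th percentile, 552 of 7343 (7.52%) passed 2-fold upward and 692 (9.42%) downward, together 16.9%, with 43 (0.586%) and 220 (3%) past 4-fold. Under the 75th percentile, 8.72% of 12602 passed it upward and 15.9% downward, together 24.7%, with 0.92% and 4.1% past 4-fold. An excess of lower transcripts at 4-fold thus held in both parts of the grid and among bright identifiers, and at 2-fold it did not hold in the upper rows. The excess at 4-fold lay mostly in identifiers with 1 probe, where agreement between probes could not be checked. Only 34 of the 737 lower and 19 of the 159 higher identifiers had 2 or more probes in use, against 4477 of all 19945. Their ratio is a mean of probes, which spreads less than 1 probe. Of the 3875 identifiers with 2 or more probes well above background on both arrays, 28 were at least 4-fold lower and 20 higher. Over all 17399 with 1 or more such probes, 556 were lower and 137 higher. The ratio of 10 days over 5 days also went with the rows, in the opposite direction: 11.2% of probes were higher and 4.37% lower in the lower rows and 5.30% higher and 9.34% lower in the upper rows.

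Transcripts that differed at 1.5 days were read on the arrays of 10 and 5 days, neither of which enters the comparison. Those lower at 1.5 days than before molt were mostly higher at 10 days than at 5 days, and those higher at 1.5 days were mostly lower. Among 15839 identifiers with a probe well above background on both arrays of each pair, 7.29% were higher at 10 days than at 5 days by 2-fold or more and 5.48% lower. Of the 1740 that had been lower at 1.5 days, 709 (40.7%) were higher by this much at 10 days than at 5 days and 29 lower, with a median log2 ratio of 0.78. Of the 1356 that had been higher at 1.5 days, 22 were higher and 288 (21.2%) lower, with a median of -0.54. For the 434 that had been at least 4-fold lower the median was 1.53, and 407 of them (93.8%) lay above 0. Over all 15839 identifiers 43.2% lay above 0, against 84.6% of the 1740 lower and 13.9% of the 1356 higher ones.

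This reversal was of similar size within each part of the grid, but calls still varied by row inside a part. From band 7 to band 12, probes lower at 1.5 days went from 9.69% to 24.0%. Those higher at 10 days than at 5 days went from 4.68% to 19.0%. The part of position in the reversal was not tested. On probes of the lower rows, 40.2% of 1270 lower identifiers were higher by 2-fold or more at 10 days than at 5 days, where 9.23% of all identifiers there were higher and 3.95% lower. On probes of the upper rows, 39.7% of 640 lower identifiers were, where 4.83% of all were higher and 7.32% lower. Among identifiers with a mean level above the 75th percentile, 48.0% of 694 lower ones were higher, where 6.66% of all were higher and 5.06% lower. A wider set of agreeing identifiers asked this of 2 or more probes well above background at 1.5 days and before molt and left out any other probe, where the 100 and 70 given earlier needed all probes in use. In it, the median of 10 over 5 days was 0.86 for 73 lower ones and -0.69 for 111 higher ones. By 2-fold or more, 33 of the 73 were higher at 10 days than at 5 days and 3 lower. Of the 111, 1 was higher and 30 lower. Over these 184 together 18.5% were higher and 17.9% lower. The 184 are only both groups pooled, so these shares are no background for either group. The share over all identifiers with 2 or more such probes is not given here. All 4 arrays lie on the same slide, and each probe's cross-hybridisation and sequence mismatch is shared by all of them.

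**Figure D5:**
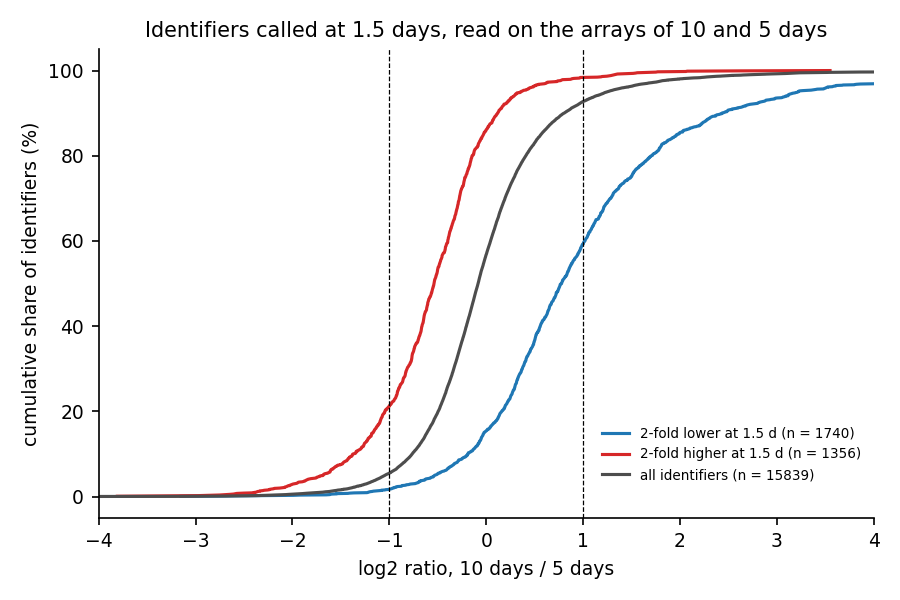
Cumulative share of identifiers (percent) by their log2 ratio of 10 days over 5 days, for those past 2-fold downward at 1.5 days over before molt (blue, 1740), those past 2-fold upward (red, 1356) and all identifiers with a probe well above background on both arrays of each pair (dark grey, 15839). Dashed lines mark 2-fold, and the medians are 0.78, -0.54 and -0.08.

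The design names its transcripts by several kinds of accession. Of the 8 kinds, curated RefSeq mRNAs (NM) were detected most often, 3704 of 4543, and had the highest median signal level, -0.13, against -1.17 for predicted RefSeq mRNAs (XM) and -1.12 for identifiers beginning with CR. Of NM identifiers 8.80% were higher and 9.53% lower, and of 8517 ENSGALT transcripts 9.03% were higher and 12.9% lower. The other 6 kinds had 6.29% to 9.65% higher and 14.9% to 18.6% lower. Among identifiers at or above the 75th percentile, 8.75% of NM were higher and 6.41% lower, and 7.77% of ENSGALT were higher and 10.1% lower. At that level 5.51% of XM were higher and 10.3% lower, and 5.48% of CR were higher and 9.93% lower. Identifiers beginning with NP had 4.68% higher and 14.9% lower, those with TC 7.14% and 19.0%, those with BX 9.66% and 11.2%, and the remaining ones 10% and 8.89%. The differences between kinds were not tested.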

How the data were processed

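The authors' scanner files hold spot intensity. The extraction software was Agilent Feature Extraction, 10.7 per the submitters' processing notes, and its release was 10.7.3.1 per the file headers. In the deposited files the processed intensity is background-subtracted, with no scaling to the other arrays. A series-wide deposited table gives log2 values, with no account by the authors of how they were made in the sources used here.

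The processed signals were taken to log2, less each array's 75th percentile over 43803 non-control spots. Outlier-flagged spots were left out, which removed 39 of 43603 probes. Repeated spots were averaged, then those probes of an identifier that passed the background flag on 1 array or more. A dim value under the lowest flagged-present value of its array was raised to it, so that its ratio is a bound. Dim values above that floor kept their own reading. An identifier was called at 2-fold. With 1 array per time no test was made. The counting steps were run on simulated data with far less spread between probes than the real data and with changes in bright identifiers alone. That run checks the steps and not how reliable the real calls are. Identifiers were named by size, 2 each way, among those with 2 or more probes, all well above background on both arrays and on the same side of 0. No identifier has a gene name in the files (0), so the gene lists written beforehand could not be matched and no list or chromosome was read. The comparison, lists and rules were chosen with earlier results of these data known. Normexp (limma 3.58.1, R 4.3.3, offset 50) used median spot and background signals, because mean signals are not in the files used here. There were 8 planned and 5 added alternatives. Software was Python 3.11.15, numpy 2.4.6 and pandas 2.3.3. Precision is limited by the number of arrays.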

Additional observations from a re-analysis of the deposited data

Results flagged for a closer look

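The spike-in control RNAs (E1A), which are no goose transcripts, stood higher against the goose signal at 1.5 days than before molt. Over 6 probes that were above background on all 32 of their spots and under a level of 9 before molt, chosen with their values in view, the mean log2 shift was 0.92 ± 0.09 (SD over the 6 probes), from 0.80 to 1.01. The brighter E1A_r60_n9 had a shift of 0.54 and the brightest, E1A_r60_1, of -0.01. The counts are relative to the goose signal on each array, except those given under spike-in scaling. The cause of the shift was not tested.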

How the results depend on the processing

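No paired analysis was possible because each time had 1 array, and no replicate could be left out. The 4 identifiers given by name kept their direction under each of 8 other settings. They also kept it under the 5 added after seeing the data, wherever they were measured (3 of the 4 in the upper rows). Those 5 were the upper or lower rows alone, removal of row band and level medians, dim values at their own level, and bright identifiers. The 4 were chosen for the largest ratios on these same arrays, all 2.66 or more in size. Spike-in scaling shifted the median by -0.92, so rescaling could hardly turn their direction. Its keeping is therefore no support. The 5 counts past 2-fold and 4-fold stayed within 1.5 times their value under median centring, quantile normalization, detection on both arrays, the brightest probe, the authors' log2 table and removal of row band and level medians. The share of higher identifiers among those past 2-fold (37.9%, exact 95% interval 36.5% to 39.4% for counting alone) was 49.4% after median centring, 43.2% after quantile normalization, 40.6% with detection on both arrays, 40.4% after removal of row band and level medians, 35.7% under normexp, 41.0% with no filter and 2.14% under spike-in scaling, which shifts every ratio alike. It was 56.4% in the upper rows alone, which turned the balance, 28.0% in the lower rows alone and 44.4% at levels at or above the 75th percentile. The exact interval treats identifiers on the same arrays as independent, which they are not, and leaves out the spread between birds and between settings.

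Under normexp 1327 identifiers were past 2-fold, 474 higher and 853 lower, and 30 higher and 178 lower past 4-fold. The offset adds 50 units to every signal. Under spike-in scaling there were 9331, 200 higher and 9131 lower, and 30 higher and 2451 lower past 4-fold. With no filter 2638 of 31533 identifiers (8.37%) were higher, and past 4-fold 385 (1.22%) were higher and 1119 (3.55%) lower. Over the 19945 identifiers of the main comparison these shares were 8.28%, 0.797% and 3.70%. With dim values left at their own level, 385 were higher and 1174 lower past 4-fold. Fewer identifiers are measured by part of the grid or at bright levels. The upper rows gave 2179 calls among 11240 identifiers (19.4%), 950 of them lower, and 249 lower past 4-fold. The lower rows gave 2806 among 11397 (24.6%), 787 of them higher, and 80 higher past 4-fold. Bright identifiers gave 1244 among 7343 (16.9%), 552 higher and 692 lower, and 43 higher and 220 lower past 4-fold. Of called identifiers with 2 or more probes, 36.0% had every probe past 2-fold, against 49.5% under spike-in scaling, 27.6% with no filter, 41.4% in the lower rows and 43.3% at bright levels. The cause of these differences was not tested. The share of lower probes was larger in the lower rows under other processing too: in the lower and the upper rows they made up 19.6% and 9.25% in the authors' log2 table, 5.47% and 2.86% under normexp, and 13.4% and 10.3% after removal of row band and level medians. That removal turned the higher probes, 10.8% in the lower rows and 8.93% in the upper rows, against 7.88% and 11.4% before it.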
